A study of Mus musculus with 6 samples.

Results

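The 10 genes Fos, Jun, Junb, Jund, Egr1, Egr2, Ier2, Atf3, Btg2 and Dusp1 are immediate early response genes, taken as every non-control probe that carries one of these names in the scanner files. They are 10 of 34844 different names on the array, with 1 probe each. Gene expression was measured in whole testes of C57BL/6 mice 8 weeks old, 3 Gipr-/- (knockout) and 3 Gipr+/+ (wild type), with 1 array per mouse, and all mice had been killed by an anesthetic overdose before the testes were removed. Gipr encodes the receptor for the gut hormone GIP, which signals through cAMP. The part of Gipr that was deleted, and the time from death to RNA extraction, are not given in the sources used here. The question is whether these genes differ between the genotypes, and whether they rise and fall together from one testis to the next.

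Immediate early genes are switched on by signals that reach the nucleus through kinases, before any new protein has to be made. Serum response factor and its ELK partners act at serum response elements (CArG boxes), and CREB, the target of cAMP signalling, acts at cAMP response elements (CRE). Fos and Jun proteins pair to form the transcription factor AP-1, Egr proteins are zinc finger transcription factors, and Dusp1 and Btg2 act as brakes on kinase signalling and on growth. Because they respond so fast, these genes are widely known to react to the handling and dissociation of tissue.

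The promoters of Fos, Btg2, Dusp1 and Egr2 are shown as examples that hold letters of these elements. Whether a cAMP-coupled receptor or a serum signal acts through them in testis was not tested. Each line holds the 250 bases before the start site, 5' to 3', from RefSeq on GRCm38.p6. Capitals mark CRE letters (TGACG, on either strand, or the full palindrome TGACGTCA that contains it) and CArG boxes.

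Fos, chr12:85473640-85473889, plus strand: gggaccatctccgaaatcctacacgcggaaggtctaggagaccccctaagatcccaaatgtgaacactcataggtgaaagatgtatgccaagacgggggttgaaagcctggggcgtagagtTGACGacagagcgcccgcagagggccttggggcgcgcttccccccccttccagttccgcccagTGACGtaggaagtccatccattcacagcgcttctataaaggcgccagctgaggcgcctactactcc
Btg2, chr1:134079156-134079405, minus strand: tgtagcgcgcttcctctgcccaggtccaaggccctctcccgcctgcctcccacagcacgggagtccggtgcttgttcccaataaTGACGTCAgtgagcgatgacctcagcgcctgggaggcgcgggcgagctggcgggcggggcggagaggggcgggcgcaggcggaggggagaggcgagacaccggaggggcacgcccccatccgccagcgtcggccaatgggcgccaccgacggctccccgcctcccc
Dusp1, chr17:26508473-26508722, minus strand: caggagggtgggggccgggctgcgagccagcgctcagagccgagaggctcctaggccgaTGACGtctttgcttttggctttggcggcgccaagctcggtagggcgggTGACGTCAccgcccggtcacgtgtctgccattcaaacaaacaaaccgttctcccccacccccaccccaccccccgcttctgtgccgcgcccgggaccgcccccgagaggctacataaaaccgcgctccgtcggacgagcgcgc
Egr2, chr10:67537619-67537868, plus strand: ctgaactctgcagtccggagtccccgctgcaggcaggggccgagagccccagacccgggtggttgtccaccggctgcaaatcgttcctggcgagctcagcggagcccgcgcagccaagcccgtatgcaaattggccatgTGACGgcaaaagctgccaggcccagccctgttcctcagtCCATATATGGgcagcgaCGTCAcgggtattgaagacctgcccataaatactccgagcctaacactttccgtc

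The promoter table matched 8 of the 10 members, and Egr1 and Ier2 had no entry. These 8 had 12 windows of 300 bases (250 before and 50 after a start site), several of them for Egr2. TGACG was present in 8 of the 12 windows, 3 of them overlapping windows of Egr2, and 20.8% of all 32851 windows held it. By gene, it was present in 6 of the 8, which were those shown above, Junb and Atf3. The full TGACGTCA was present in 2 of the 12 windows, those of Btg2 and Dusp1, and in 1.79% of all windows. Counted from the start site, TGACG began at -129 and -66 in Fos, and the full site at -166 in Btg2 and -143 in Dusp1. Among these 8 genes, a CArG box was found within the windows of Egr2 alone. There, 4 overlapping or neighbouring windows held 2 different boxes, and 1.63% of all windows held one. The AP-1 letters TGANTCA were found in 0 of the 12 windows, and in 7.81% of all windows. These are matches of letters on both strands, not measured binding sites. Elements outside the windows, and any of Egr1 and Ier2, were not searched, so a missing match does not show that a gene lacks the element.

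Values below are the background-corrected spot brightness that Feature Extraction calls the processed signal, either on its linear scale or as log2 relative to the 75th percentile of the array. Both scales compare 1 probe between testes and never 2 probes with each other. Feature Extraction calls a spot well above background by its own test. A gene was tested when its probe met that on all 3 arrays of at least 1 genotype, which 26933 genes did. The genotypes were compared by limma over all of these genes with Benjamini-Hochberg adjustment, and a gene is said to be called where its adjusted p was below 0.05.

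The label check came first. The Gipr probe read -2.35, -2.31 and -2.12 in the knockouts and 0.08, 0.15 and 0.44 in wild types (log2), 5.58-fold lower in the knockout (limma adjusted p = 0.00195). Haploid germ cell markers were present throughout, with 8 of 8 measured and Prm1, a protamine of sperm chromatin, well above background on 6 of 6 arrays. Across all tested genes the arrays correlated between 0.995 and 0.997. All 6 arrays lie on 1 slide, with the knockout in slide row 1 and the wild type in row 2, and an effect of the row cannot be told apart from one of genotype. No spot was lost to saturation, and the number of arrays, 3 per genotype, limits the precision (an exact permutation test of 1 gene would reach p = 0.1 at the lowest). In whole-testis RNA, fewer cells of a type and less RNA per cell cannot be told apart.

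Of the 10 members, 6 were well above background on every array (Jun, Jund, Egr1, Ier2, Btg2 and Dusp1) and Egr2 on 5 of 6. These 7 were tested. Fos was above background on 3 arrays, Junb on 4 and Atf3 on 1, and none of these 3 met the filter.

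Jun and Jund, both partners of Fos in AP-1, were clearly measured in every testis. Jun read 1304, 1121 and 1025 in knockout replicates 1 to 3 and 1002, 993 and 1098 in the wild type (processed signal). Knockout replicates 1 and 2 held the highest values, while knockout replicate 3 was among the wild types on this scale and, after scaling, below all of them, so the genotypes overlapped. On the log2 scale Jun was 0.60 ± 0.16 in the knockouts and 0.46 ± 0.05 in wild types (SD, n = 3 each), a difference of 0.14 ± 0.09 (SE; limma adjusted p = 0.707). Jund, which unlike Jun and Junb is generally regarded as constitutively expressed, read 5437, 5314 and 5449 in the knockouts and 5185, 5529 and 5954 in wild types. After scaling it had the smallest range of the tested members, 1.12-fold from the lowest to the highest testis, and its difference was -0.05 ± 0.06 (log2, SE; adjusted p = 0.821). Their probes lie at chr4:94716928-94716987 and chr8:73224436-73224495 (mm9, per the files).

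**Figure D1:**
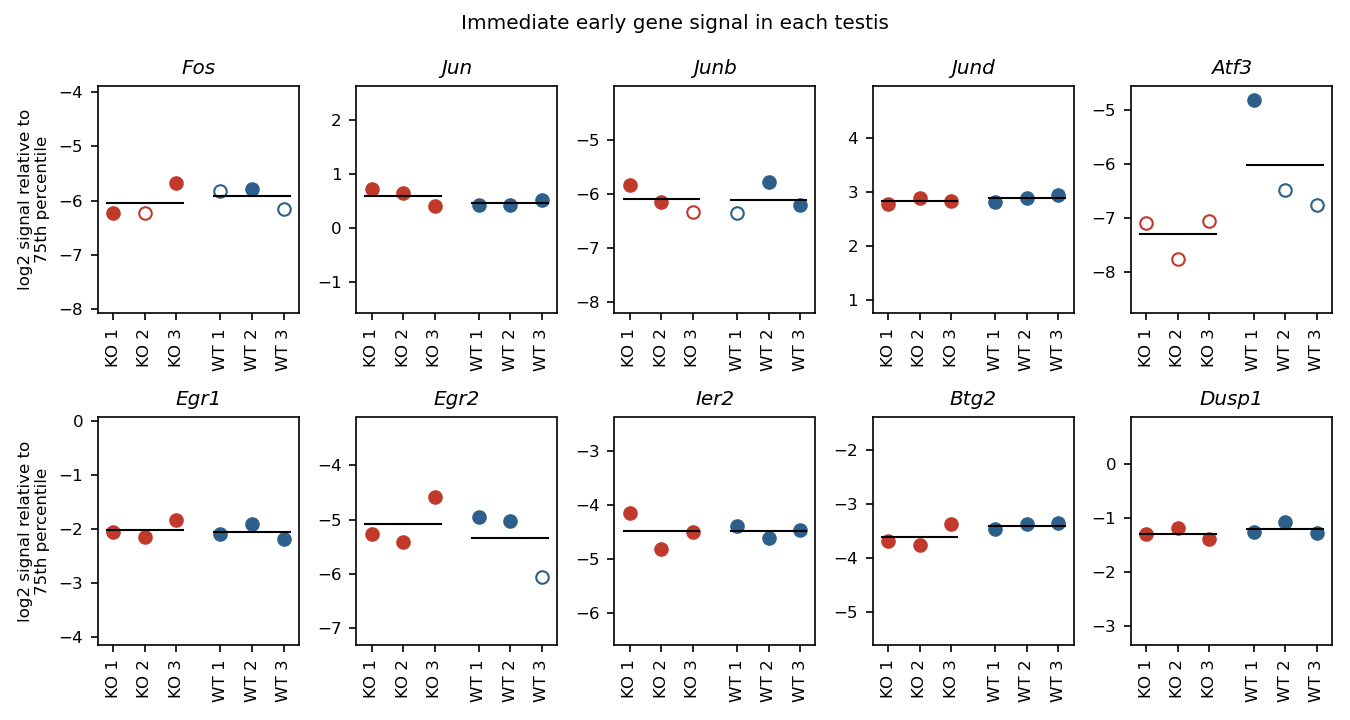
Log2 signal relative to the array's 75th percentile for each of the 10 members, with 1 point per testis (KO, knockout, red; WT, wild type, blue), the group mean as a line, and filled points where the probe was well above background. All panels span the same height on the log2 scale. The genotypes overlap for the 7 tested genes, Egr2 spreads over 1.48 log2 units with its lowest point not well above background, and Atf3 is above background in wild-type replicate 1 alone.

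Fos, the founding gene of the AP-1 family, was at the edge of detection. Its probe lies at chr12:86817900-86817959 (mm9, per the files) and is printed on the array 10 times, which gives a technical error that the single-spot members lack. Of these 10 spots, 8, 3 and 9 were well above background in knockout replicates 1 to 3, and 4, 8 and 3 in wild-type replicates 1 to 3, which makes 35 of 60 in all. The mean processed signal was 10.4, 9.51 and 15.1 in the knockouts and 13.1, 13.5 and 10.8 in wild types. Knockout replicate 3 was highest, knockout replicates 1 and 2 were lowest, and the wild type lay between. The 6 array means spanned 0.57 log2 units. Spots within an array had an SD of 0.20 to 0.41, and the array means an SE of 0.07 to 0.13. That SE covers the spots of an array, not the preparation of its sample. In the fit without a filter on dim probes, Fos differed by -0.13 ± 0.20 (log2, SE; limma adjusted p = 0.846).

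**Figure D2:**
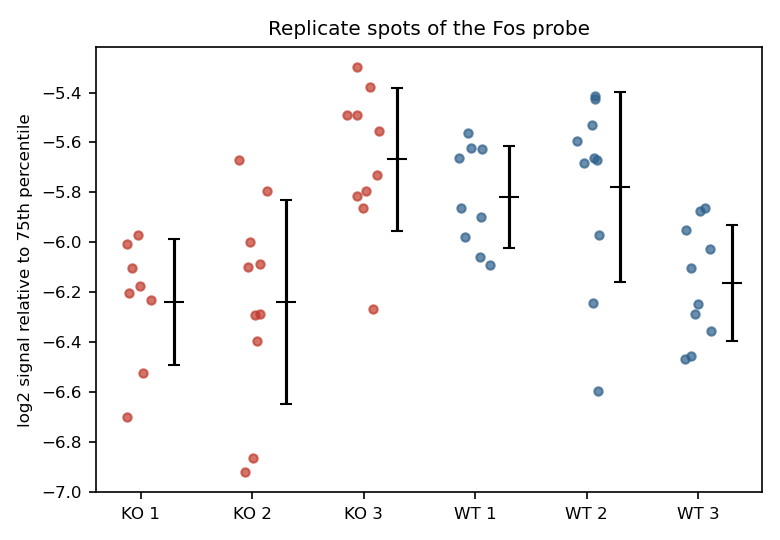
Each point is 1 spot of the Fos probe (log2 signal relative to the array's 75th percentile) in the 6 testes, after spots marked as outliers were left out (8 to 10 spots remain per array), and bars show mean ± SD over spots. Spots of different testes overlap, and the array means run from -6.24 to -5.67.

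Junb, which can replace or oppose Jun in AP-1, was read at a similar distance from background by this probe, shown because its value rests on a single spot of it.

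Junb: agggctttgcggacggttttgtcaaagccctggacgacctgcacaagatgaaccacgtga
Ier2: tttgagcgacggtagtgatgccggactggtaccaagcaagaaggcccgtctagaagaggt

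Junb read 13.8, 10.2 and 9.55 in the knockouts and 9.08, 13.4 and 10.4 in wild types (processed signal). The error that the model in Feature Extraction gave its spot was 15.6% to 27.5% of the signal, and the difference in the fit without a filter was 0.01 ± 0.20 (log2, SE; limma adjusted p = 0.986). Ier2, a nuclear protein induced by growth factors, is read by the second probe shown and was above background on 6 of 6 arrays. It read 44.5, 25.5 and 33.9 in the knockouts and 35.3, 30.2 and 34.9 in wild types. Both the highest and the lowest testis were knockouts, and the difference was 0.00 ± 0.17 (log2, SE; adjusted p = 0.996).

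Atf3, a stress-induced member of the ATF/CREB family, was not well above background in any knockout testis (probe at chr1:192994547-192994606). It read 5.74, 3.33 and 5.79 in the knockout, 26.0 in wild-type replicate 1, and 8.29 and 7.06 in the other wild types (processed signal). The value of 26.0 was the only 1 well above background, so the other 5 have no order. In the fit without a filter, which takes those 5 values as they stand, the difference was -1.27 ± 0.55 (log2, SE; limma adjusted p = 0.757). With only 1 value well above background, that difference is not a measured fold.

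Egr1 and Egr2 encode zinc finger factors that bind the same kind of GC-rich site. Egr1, on chromosome 18, read 189, 161 and 214 in the knockouts and 174, 196 and 169 in wild types (processed signal). Its difference was 0.04 ± 0.11 (log2, SE; limma adjusted p = 0.911), and knockout replicate 3 was again the highest. Egr2 (probe at chr10:67004798-67004857) read 20.5, 16.8 and 32.2 in the knockouts and 23.9, 22.9 and 11.6 in wild types, where the lowest, wild-type replicate 3, was not well above background. It therefore passed the filter through the knockouts alone, the group with the higher mean. Its difference of 0.25 ± 0.35 (log2, SE; adjusted p = 0.837) had the widest interval of the tested members, -0.60 to 1.11.

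Btg2, an antiproliferative protein, and Dusp1, a phosphatase that switches off MAP kinases, carry the full CRE palindrome in the windows shown above. Btg2 (probe at chr1:135972094-135972153) read 61.1, 52.7 and 73.8 in the knockouts and 66.6, 71.4 and 74.8 in wild types (processed signal). Knockout replicates 1 and 2 were below every wild-type animal and replicate 3 was not. The difference, -0.21 ± 0.11 (log2, SE; limma adjusted p = 0.680), had the lowest adjusted p of the 7 tested members. Dusp1 read 321, 315 and 290 in the knockouts and 308, 353 and 319 in wild types, a difference of -0.09 ± 0.09 (adjusted p = 0.772).

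Over the 7 tested members, 4 were higher and 3 lower in the knockout, 0 were called by limma, and 0 reached an unadjusted p under 0.05. Over all genes 0.0705% were called and 7.46% reached that unadjusted p, 3.73% higher and 3.72% lower in the knockout. In 0 of the 7 did the genotypes not overlap, against 13.1% of all genes (7.07% higher and 5.99% lower). In the fit without a filter, Fos, Junb and Atf3 were not called and had unadjusted p of 0.542, 0.949 and 0.0627, against 0.0201% of all genes called and 5.51% at an unadjusted p under 0.05. The median difference of the 7 was 0.004 on the log2 scale, and 0.002 over all genes. The 95% intervals of 6 of the 7 lay within 0.5 log2 units of no difference, a 1.41-fold change, and Egr2 was the exception. A missed threshold does not show that the genotypes are alike. With this spread between animals, true differences within a gene's own interval could not be told apart. Those intervals ran from the narrowest, Jund (-0.21 to 0.10), to the widest, Egr2 (-0.60 to 1.11). Leaving out single arrays moved all 7 tested members (see the closing section). Egr1, Egr2 and Ier2 changed sign, while Jun, Jund, Btg2 and Dusp1 kept theirs but moved by more than 1.5 times. For Jun and Btg2, the differences without knockout replicate 3 were 0.23 ± 0.07 and -0.32 ± 0.07 (log2, SE; limma adjusted p = 0.837 and 0.770). Jun was 0.07 without knockout replicate 1, and Btg2 was -0.13 without knockout replicate 2. Jun and Btg2, 2 of the 7, had unadjusted p below 0.05 without knockout replicate 3 (0.0173 and 0.0049) and with array weights (0.0219 and 0.0206). The share of all genes below 0.05 in those fits is not given here, so that count has no share to be set against.

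**Figure D3:**
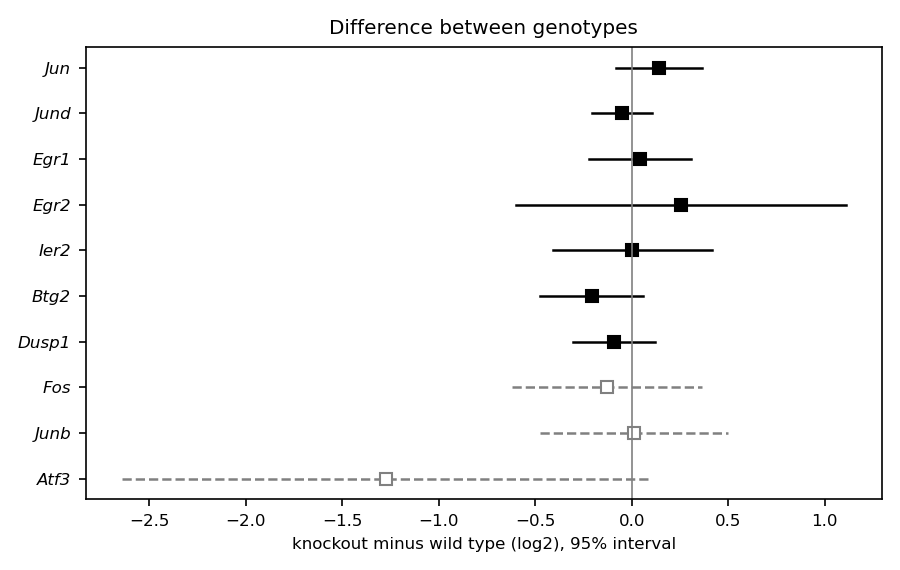
Log2 difference (knockout minus wild type) with the 95% interval from limma, for the 7 tested members (black, solid) and for Fos, Junb and Atf3 from the fit without a filter on dim probes (grey, dashed). Every interval crosses 0. Jund has the narrowest, -0.21 to 0.10, and Atf3 the widest.

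Spread between single testes was ordinary for most members. The range from the lowest to the highest testis was 0.16 log2 units for Jund, 0.31 for Jun, 0.33 for Dusp1, 0.35 for Egr1, 0.40 for Btg2, 0.67 for Ier2 and 1.48 for Egr2. The median over all tested genes was 0.32, and 5 of the 7 members lay above it. Range grows as signal falls, and among genes within 0.5 log2 units of the member's own mean signal the median range was 0.20 for Jund, 0.25 for Jun, 0.31 for Dusp1, 0.35 for Egr1, 0.46 for Btg2 and 0.61 for Ier2. Egr2 stood further out, at 1.48 against 0.77, and its range was at the 98.3rd percentile of all tested genes. Its lowest value, in wild-type replicate 3, was the one not well above background, and Feature Extraction gave that spot an error of 24.6% of its signal against 13.0% to 17.2% on the other arrays.

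**Figure D4:**
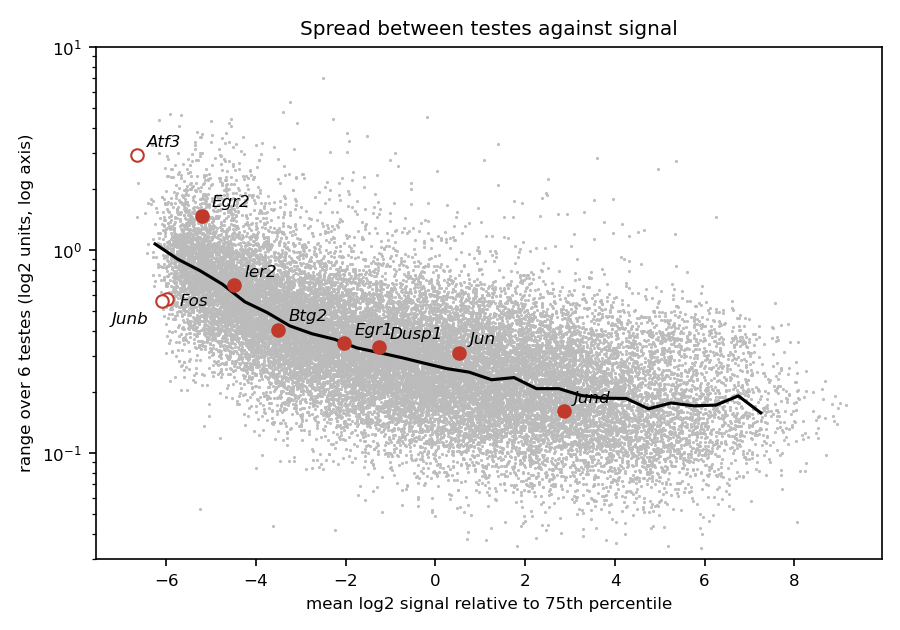
Range over the 6 testes (log2 units, on a log axis) against mean log2 signal for all 26933 tested genes (grey points), with the running median in bins of 0.5 log2 units (line) and the members in red, open where the gene did not pass the filter. Most members lie near the line. Egr2 and Atf3 lie above it, and Fos and Junb below it.

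The measured values of the members did not rise and fall as a block. Each tested member is read by 1 spot per array, to which the model in Feature Extraction gave an error. As a share of the signal it was 10.1% for Egr1 and slightly less for Jun, Jund and Dusp1. It was 10.6% to 11.1% for Btg2 and 11.0% to 13.8% for Ier2. This is the error of a model and not noise measured on repeated spots, which the tested members lack. For Jund its share was the same on every array. The whole range of Jund over the testes was 0.16 log2 units, against a median of 0.20 among genes of similar signal. The model error is therefore not taken as the smallest joint movement that could be seen. That limit was not measured, and the order of testes with close values is uncertain. On the scaled log2 values, of the 7 tested members, 2 had their highest value in each of knockout replicate 1, knockout replicate 3 and wild-type replicate 3, 1 in wild-type replicate 2, and 0 in the other 2 testes. Over all tested genes the share with the highest value was 18.4%, 21.5% and 17.8% in the first 3 of these testes. As deviations from the own mean of each gene, the median of the 7 was -0.05, -0.11 and -0.01 in knockout replicates 1 to 3 and -0.02, 0.13 and -0.01 in the wild-type replicates. In wild-type replicate 2, the testis with the highest median, 5 of the 7 members were above their own mean, and in each other testis 2 or 3 were.

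**Figure D5:**
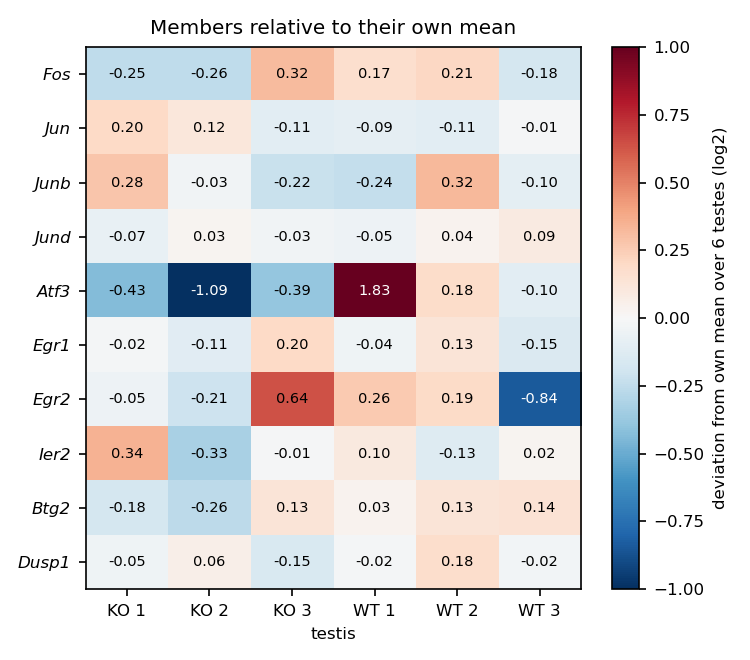
Deviation of each of the 10 members from its own mean over the 6 testes (log2; red above, blue below; colours stop at 1 and -1, the numbers do not). No column is of 1 sign for all genes. Fos, Egr1 and Egr2 share positive values in knockout replicate 3 and wild-type replicate 2 and negative values in knockout replicates 1 and 2 and wild-type replicate 3.

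Pairwise correlations over the 6 testes went both ways. Of the 45 pairs among the 10 members, 23 were positive and 22 negative, with a median Pearson r of 0.02. After the mean of each genotype was removed, 23 were positive and the median was 0.03. All values of an array share 1 scaling, 3 of the members are near background, and spot error enters the values of the tested members. A two-sided exact permutation p under 0.05 was reached by 3 of the 45 pairs, and 0 remained after adjustment (lowest adjusted p = 0.563). The lowest p that 6 testes allow for a pair is 0.00278.

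Fos and Jun ran against each other (r = -0.89, rho = -0.94, exact permutation p = 0.0167 for each, adjusted p = 0.563 and 0.750), with r = -0.86 when the 2 testes farthest from the median of Fos were left out. Egr1 and Egr2 ran together (r = 0.84, exact permutation p = 0.0264; rho = 0.83, p = 0.0583; adjusted p = 0.563 and 0.955), with r = 0.83 without the 2 farthest testes. Fos and Egr2 also ran together (r = 0.77, exact permutation p = 0.0486; rho = 0.77, p = 0.103; adjusted p = 0.563 and 0.955), with r = 0.67 without them. Within genotypes these r were -0.93, 0.84 and 0.92. Jun and Btg2 gave r = -0.86 (exact permutation p = 0.05, adjusted p = 0.563; rho = -0.54, p = 0.297, adjusted p = 0.955), and r was 0.26 without the 2 testes farthest from the median of Jun, so that relation rests on them. These pairs were picked after their values were seen.

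A wider list of immediate early genes was read the same way. Of 50 listed, 48 were tested, with 18 higher and 30 lower in the knockout, a median difference of -0.05 (log2), 0 called and 1 at an unadjusted p under 0.05. The exceptions were Rgs1 and Ptgs2, neither well above background on any array. Genotypes did not overlap in 3 of 48 (6.25%, against 13.1% of all genes), which were Csrnp1, Klf2 and, named after its values were seen, Sgk1. Csrnp1, a nuclear protein, was at 2.12 ± 0.04 in the knockouts and 1.97 ± 0.04 in wild types (log2, SD, n = 3 each), a difference of 0.16 ± 0.06 (SE; limma adjusted p = 0.662). Klf2, a zinc finger factor, differed by -0.11 ± 0.06 (adjusted p = 0.692), Dusp5, a MAP kinase phosphatase, by -0.22 ± 0.11 (0.667), and Zfp36l1, an RNA-binding protein, by -0.16 ± 0.08 (0.662). The Fos relatives Fosb, Fosl1 and Fosl2, named as family members and not by the rule, were well above background on 6 of 6 arrays, with differences of -0.06 ± 0.14, 0.03 ± 0.10 and -0.04 ± 0.12.

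Single testes stood out in a few of these genes, not always the same testis and not always in the same direction. Socs3, an inhibitor of cytokine signalling, read -1.29 in knockout replicate 3 and between -3.57 and -2.96 in the other 5 testes (log2), a range at the 99.5th percentile. Zfp36, which destabilises AU-rich mRNAs and was above background on 5 of 6 arrays, read -6.71 in knockout replicate 1 and between -5.80 and -5.37 elsewhere. Egr3 read -3.93 in knockout replicate 3, its lowest, where Egr1 and Egr2 were at their highest. Knockout replicate 3 held the highest value of 12 of the 48 genes (25%) and the lowest of 11, with 21.5% and 26.9% of all genes highest and lowest there.

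The kinases and factors upstream of these genes were measured in full, 30 of 30. They were higher for 19 and lower for 11, with a median difference of 0.02 (log2), 0 called and 0 at an unadjusted p under 0.05. Ep300, a coactivator of CREB, had the lowest p, at 0.22 ± 0.10 (log2, SE; limma adjusted p = 0.662). Knockout replicate 3 held the highest value of 14 of the 30 and the lowest of 9. Partners and competitors of AP-1 were lower for 14 of 19 (median -0.03) with 0 called. Genotypes did not overlap in 3 of these 19 (15.8%, near the 13.1% of all genes). Nrl, a bZIP factor known from rod photoreceptors, read -3.82, -3.73 and -3.82 in the knockouts and -4.50, -4.15 and -4.27 in wild types (log2), a difference of 0.52 ± 0.10 (adjusted p = 0.406). Heat shock and stress genes were lower for 8 of 13 tested (median -0.02), with 0 called. Sesn2, a stress-induced regulator of growth signalling, was at 0.18 ± 0.07 and Txnip, an inhibitor of thioredoxin, at -0.27 ± 0.10 (adjusted p = 0.662 for each).

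Markers of fat varied widely between single testes. Fabp4, a fatty acid carrier of fat cells, stood at 1.82 in knockout replicate 1, at 1.12 in wild-type replicate 2, and between -5.23 and -3.62 in the other 4 testes (log2). Of the 4 adipose markers tested of 6, 3 had their top value in knockout replicate 1 and the other in wild-type replicate 2. Their median deviation from the own mean of each gene was 0.79 in the first of these, 0.42 in the second and between -0.45 and -0.19 elsewhere, while Lep and Cfd did not pass the filter. Summed signal of these 4 relative to the 75th percentile ran from 4.01 to 9.75 in the knockout and from 4.36 to 8.59 in the wild type. Beside that, Jun and Ier2 were highest in knockout replicate 1 and Dusp1 in wild-type replicate 2. Jun and Ier2 were below their own mean in wild-type replicate 2 (-0.11 and -0.13), and Dusp1 was so in knockout replicate 1 (-0.05). Junb, near background, was above its own mean in both testes (0.28 and 0.32) and below it in the others. The part of fat in those values was not tested.

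Knockout replicate 3, where Fos, Egr1 and Egr2 were highest, also held the lowest summed Leydig marker signal, with 4 of 6 tested markers at their lowest there. Hsd3b1, a steroid dehydrogenase, was at its highest there (4.57, log2), and Lhcgr, the receptor for luteinizing hormone, was lowest in knockout replicate 1. Star, the cholesterol carrier of steroid synthesis, read -1.68 in knockout replicate 3 and between -0.21 and 0.76 in the other testes (log2). The median deviation of the 6 tested Leydig markers was -0.63 there and between 0.02 and 0.41 elsewhere. Their summed signal was 36.6 to 40.8 in the knockout and 41.03 to 43.9 in the wild type. That sum rests mostly on the probes that read brightest, Hsd3b1 and Cyp17a1. Of the 6 markers, 1 was higher and 5 were lower in the knockout, with 0 called. In 0 of them did the genotypes not overlap, against 13.1% of all genes. Of 10 Sertoli markers, 8 were higher and 2 lower in the knockout, with 0 called, and 8 of 10 had their highest value in knockout replicate 3. They had a median deviation of 0.18 there and between -0.17 and 0.06 elsewhere, and macrophage markers -0.29 against -0.05 to 0.20. In knockout replicate 3, 8 of 8 spermatid and 5 of 8 endothelial markers were also at their lowest, and 5 of 6 spermatocyte markers at their highest. Of all tested genes, 26.9% were lowest and 21.5% highest in that testis. The part of cell makeup in the Egr and Fos values was not tested. Wild-type replicate 1, where Atf3 was highest, had the highest macrophage median, 0.20, and the highest value of 4 of 7 tested markers, with summed signal of 8.05 against 6.85 to 7.42 in the other wild types and 5.99 to 7.25 in the knockout. Of 5 tested blood markers, 3 were highest in knockout replicate 1, where their median deviation was 0.28. Hba-a1, a haemoglobin chain, was at 3.07 there against 1.60 to 2.82 elsewhere, while Alas2 was highest in wild-type replicate 3 and Slc4a1 in wild-type replicate 1.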

How the data were processed

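Per the file headers, 1-colour Agilent arrays of design 028005 were read with Feature Extraction 10.7.3.1, and probe positions are on mm9. Per the labels, 100 ng of total RNA per testis was labelled with Cy3. The deposited intensity values are spot brightness on a linear scale, background-subtracted and spatially detrended in the processed signal. The authors' value list holds the same intensity times 1 factor per array, 0.967 to 1.08, which sets each median to 200.0, and served as an alternative.

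Outlier spots were left out (117 to 149 per array), log2 values of repeated spots were averaged by probe, and every array was scaled by its 75th percentile. The filter kept 38884 probes, and a gene was represented by its brightest one. Between 70.6% and 76.0% of non-control spots were well above background. limma 3.58.1 (R 4.3.3) compared 3 knockout with 3 wild-type arrays, two-sided, without covariates. The fit was tested on simulated data first. Labels do not say more on how the animals relate, so p-values measure the spread between these samples.

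The members and gene lists were chosen with earlier results of these data known. Beyond the 10 members and Gipr, up to 4 genes of lowest p and up to 3 of largest range could be named per list. The 16 alternatives are given in the closing section. Names come from the files, updated through RefSeq (GRCm38.p6).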

Additional observations from a re-analysis of the deposited data

How the results depend on the processing

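No member was called in limma under any of the 16 alternatives, and the lowest adjusted p was 0.202, for Btg2 with array weights. Jun stayed higher and Jund, Btg2 and Dusp1 lower in 16 of 16. Jun ran from 0.07 to 0.23 and Btg2 from -0.32 to -0.067, the last with normexp. Jund ran from -0.089 to -0.019 and Dusp1 from -0.145 to -0.025, both extremes of each with 1 array left out. Ier2, near 0 as reported, was -0.027 with normexp and -0.0046 with the authors' value list, and Egr1 and Egr2 were -0.043 and -0.036 with array weights. Leaving out 1 array at a time gave -0.17 to 0.17 for Ier2, -0.043 to 0.12 for Egr1 and -0.10 to 0.45 for Egr2, with negative values for Egr1 and Egr2 without knockout replicate 3 (-0.043 and -0.00027) or wild-type replicate 3 (-0.02 and -0.10), and for Ier2 without knockout replicate 1 (-0.17) or wild-type replicate 2 (-0.06). The cause was not tested. The median difference of the members ran from -0.038 to 0.11 over these fits, with 0.11 without knockout replicate 2. Their median range between testes was 0.27 to 0.36 over the alternatives, and the most members highest in 1 testis 2 to 3.

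Counts over all genes moved more: 19 as reported, 7 without a filter on dim probes, 30 with array weights, 34 with eBayes trend and robust, and 5 to 13 with 1 array left out. Among the further immediate early genes, the count at an unadjusted p under 0.05 was 1 as reported, 2 with normexp, 5 with array weights, 2 with trend and robust, and 0 to 5 with 1 array left out. The share of all genes at that unadjusted p in these alternatives is not given here. With the replicate block the counts were 5 over all genes and 0 in that list. Samples with the same number did not deviate together (r = 0.05, -0.05 and -0.03 over 26933 genes). No pairing by number was seen, and the labels do not say how the animals relate. For Fos, Junb and Atf3, signal close to background limits what can be measured.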
